A study of Marchantia polymorpha and Arabidopsis thaliana and Oryza sativa Japonica Group with 116 samples.

Results

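The 150 loci described here are those whose transcripts were most depleted after 24 h of salt in the liverwort Marchantia polymorpha. They were chosen by their measured levels in the male wild type Tak-1, from mean CPM per group, the counts of a locus scaled to a common library total. For each locus the fall at 24 h against 0 h and the fall at 24 h against 2 h were taken as log2 ratios of CPM plus 1, and the smaller of the 2 was its score. The 150 highest scores were kept, out of 8325 loci that reached 5 CPM in at least 1 Tak-1 group and whose identifiers do not begin with MapolyY. The table held 16743 distinct loci in all. A high score therefore marks a locus whose transcripts were present at both 0 h and 2 h and were reduced only by 24 h, or reduced in steps with the later step still large.

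The series followed salt responses in Arabidopsis, Marchantia and rice carrying mutations in heterotrimeric G-protein subunits, and in Marchantia WRKY mutants. The groups used here were 4 Marchantia genotypes, the mutants gpa1-2, gpb1-2 and xlg1-2 and the wild type Tak-1, each sampled at 0, 2 and 24 h of 100 mM NaCl. There were 3 libraries per group and 36 in all, made from whole gemmalings 7 days old that had grown in liquid B5-based medium in constant light. Gemmalings are the young plants that grow from gemmae, the clonal propagules of the thallus. All 12 groups received the same growth conditions, and the 0 h plants are the only untreated ones. No mock-treated plants accompanied the time course, so effects of NaCl and effects of time spent or of transfer cannot be told apart. The labels name 1 allele per mutant and call the libraries biological replicates, without saying whether cultures were separate, and p-values below measure only the spread between these libraries. In RNA from whole gemmalings, fewer cells of a type and less RNA per cell cannot be told apart.

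Heterotrimeric G proteins relay signals from the plasma membrane. GPA1 encodes the canonical Gα subunit, GPB1 the Gβ subunit, and XLG1 an extra-large Gα protein of a kind known from plants. High salt exposes plants to osmotic stress at once and to sodium accumulation later, and transcript levels are known to shift in both phases. The files give Marchantia loci by scaffold identifiers without names, and none of the 150 members was paired with a name by the reference table used here. Members are therefore given by identifier alone, with no role, and at most 2 identifiers per direction and comparison are given with their values except where a locus is said to have been picked for its values. The mutated loci were not looked up in these libraries for the same reason.

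Depth ranged between 7.48 and 21.3 M counts per library. The replicate 3 libraries of gpb1-2 and xlg1-2 were the deepest, at 19.0 M counts or more, and every other library held 11.5 M or fewer. The least typical library was replicate 1 of xlg1-2 at 2 h, whose log expression correlated at 0.973 with the mean of the other libraries of its group across the ranked loci. Across the members alone the lowest such correlation was 0.947, for replicate 1 of xlg1-2 at 24 h. Replicate 1 of xlg1-2 at 2 h followed, at 0.9565. Results that rest on that genotype are given with and without its replicate 1 where the call changes. All 150 members passed the filter on low counts and were tested among 10296 loci.

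In the Tak-1 libraries that defined the list, the members' values are a description. The first in rank was Mapoly0081s0035 with a score of 4.41, and the second was Mapoly0004s0139 with 3.83. Mapoly0081s0035 averaged 94.4 ± 14.4, 45.3 ± 1.26 and 1.19 ± 0.527 CPM after TMM scaling (which adjusts library totals for composition) at 0, 2 and 24 h in Tak-1 (SD, n = 3). Mapoly0004s0139 averaged 389 ± 42.9, 205 ± 78.2 and 13.2 ± 4.80 CPM in the same order. Both had their highest mean at 0 h and their lowest at 24 h. At the end of the list the scores lay close together. Mapoly0169s0005 was the last member, with a score of 1.468 and Tak-1 means of 16.3, 50.0 and 5.24 CPM at 0, 2 and 24 h. Mapoly0012s0165 stood just outside with a score of 1.466 and means of 6.78, 15.1 and 1.82 CPM. The median member kept 17.5% of its 0 h level at 24 h in Tak-1.

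The list spans a wide range of levels. At 0 h in Tak-1 the member means ran between 5.69 and 3703 CPM with a median of 56.3 CPM, and 51 members were at 100 CPM or more. At 24 h the median was 8.07 CPM, 14 members were under 1 CPM and 17 were still at 100 CPM or more. The 5 most abundant members held 41.4% of the list's counts at 0 h and the 10 most abundant 56.9%. The 2 most abundant at 0 h in Tak-1 were Mapoly0133s0032 and Mapoly0079s0038. Mapoly0133s0032 averaged 3696 ± 645, 2024 ± 418 and 165 ± 8.60 CPM after TMM scaling at 0, 2 and 24 h in Tak-1 (SD, n = 3). Mapoly0079s0038 averaged 3453 ± 385, 2875 ± 397 and 842 ± 24.1 CPM. These 2 loci had similar levels at 0 h and separate ones at 24 h, with no overlap between their libraries at that time.

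**Figure D1:**
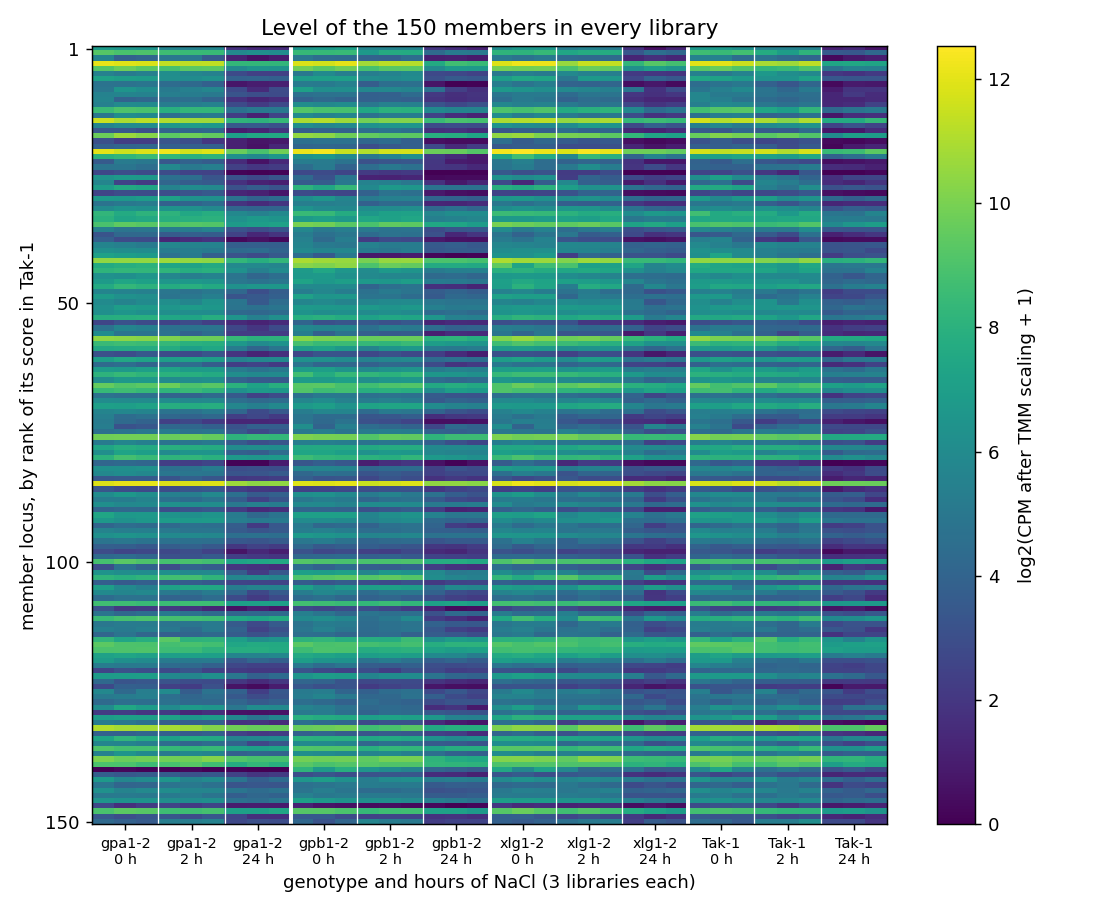
Level of each of the 150 members (rows, by rank of score in Tak-1) in each of the 36 libraries (columns, 3 per genotype and time), as log2 of CPM after TMM scaling plus 1. The 24 h columns are darker than the 0 h and 2 h columns in all 4 genotypes, although the ranking used Tak-1 alone.

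The mutants' 27 libraries took no part in choosing the members. In each of the 3 mutants the members as a group took up a smaller share of all counts at 24 h. The share was 3.67 ± 0.103%, 3.22 ± 0.165% and 0.989 ± 0.0842% at 0, 2 and 24 h in gpa1-2 (SD, n = 3). In gpb1-2 it was 3.65 ± 0.103%, 2.72 ± 0.292% and 0.930 ± 0.0359%. In xlg1-2 it was 3.81 ± 0.0581%, 3.08 ± 0.242% and 0.982 ± 0.0907%. The 24 h libraries lay below every 0 h and 2 h library in each mutant, with no overlap. In Tak-1, whose libraries set the rule, the share was 3.51 ± 0.185%, 2.79 ± 0.321% and 0.646 ± 0.0738% at 0, 2 and 24 h.

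**Figure D2:**
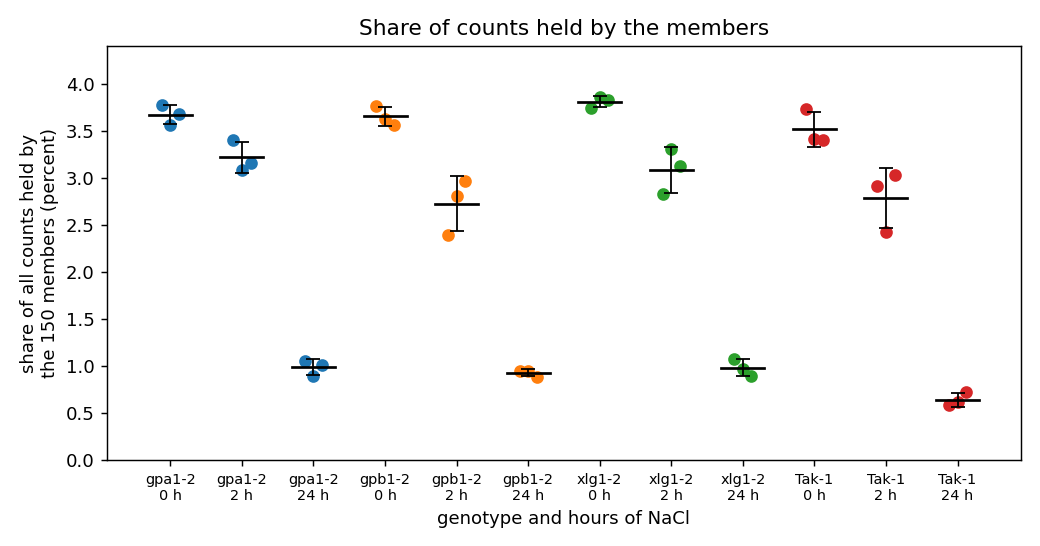
Share of all counts held by the 150 members in each library (points, percent), with the group mean (line) and SD (bars, n = 3), at 0, 2 and 24 h of NaCl in gpa1-2, gpb1-2, xlg1-2 and Tak-1. Every 24 h library lies between 0.590% and 1.08%, and every 0 h library between 3.40% and 3.85%.

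At 24 h against 0 h nearly every member fell in every mutant. The quasi-likelihood F-test of edgeR, with Benjamini-Hochberg adjustment over all loci tested and calls at an adjusted p under 0.05, called 146 of 150 members lower in gpa1-2, where it called 22.5% of all loci lower. In gpb1-2 it called 148 members lower, against 22.9% of all loci. In xlg1-2 it called 146 members lower, against 23.7% of all loci. No member was called higher in any mutant, where 25.4%, 24.5% and 26.0% of all loci were called higher in gpa1-2, gpb1-2 and xlg1-2. All 150 fitted changes were negative in each mutant. Of the members, 143 were called lower in all 3 mutants, against 17.5% of all loci, 4 in 2 mutants and 3 in 1. The Tak-1 libraries used by the rule called all 150 lower, against 25.6% of all loci, and nothing is read from that count.

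The medians of the fall lay close together in the 3 mutants, while single members differed. The median log2 change of the members at 24 h against 0 h was -2.17 in gpa1-2, -2.09 in gpb1-2 and -2.15 in xlg1-2, against medians of 0.03, 0.04 and 0.06 over all loci tested. Falls of at least 2-fold were called for 141 members in gpa1-2, 145 in gpb1-2 and 144 in xlg1-2, against 8.28%, 9.79% and 9.13% of all loci. The median member kept 24.3% of its 0 h level in gpa1-2, 25.6% in gpb1-2 and 25.8% in xlg1-2. The lower value in Tak-1 comes from the libraries on which the members were chosen, and the difference was not tested. The count was similar across starting levels. The share of all loci called lower at each level was not counted, so these counts are descriptions. Of members at 100 CPM or more at 0 h, 54 of 54 were called lower in gpa1-2, 54 of 54 in gpb1-2 and 57 of 58 in xlg1-2. Of members under 20 CPM the counts were 32 of 34 in gpa1-2, 27 of 29 in gpb1-2 and 25 of 27 in xlg1-2.

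**Figure D3:**
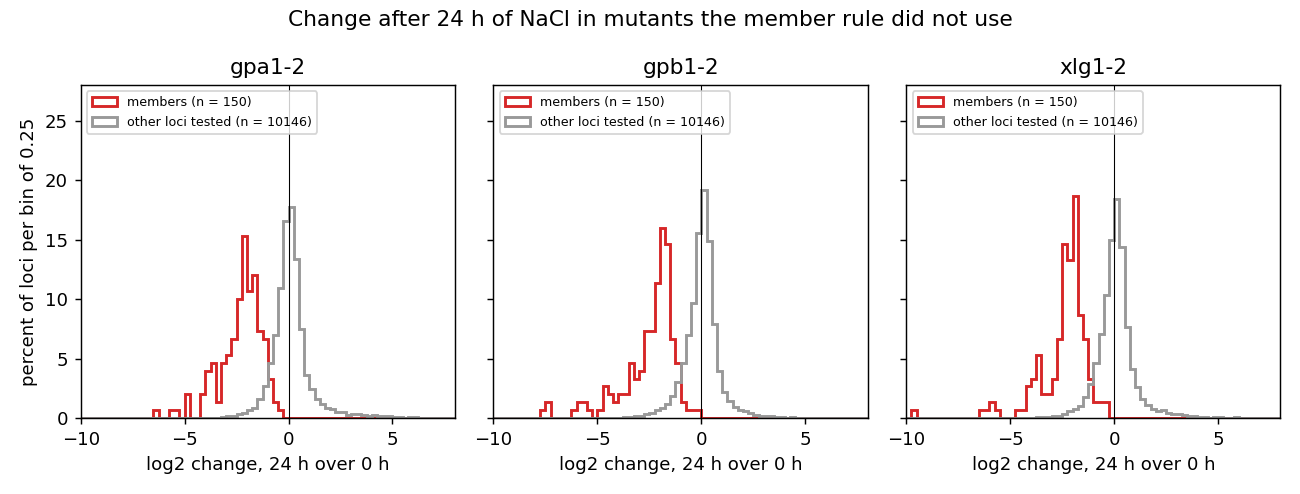
Distribution of log2 changes at 24 h over 0 h (x axis, bins of 0.25) in gpa1-2, gpb1-2 and xlg1-2 for the 150 members and for the other 10146 loci tested, each as a percent of its own number. The members centre near -2.17, -2.09 and -2.15 in the 3 panels and the other loci near 0.

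Among members with at least 10 CPM in the higher group and no overlap between libraries, Mapoly0081s0035 had the largest fall in gpa1-2. Its 3 libraries gave 2.42, 1.73 and 1.99 CPM after TMM scaling at 24 h, against 113, 94.2 and 85.4 CPM at 0 h. The log2 change was -5.57 (SE 0.27, edgeR adjusted p = 6.48e-15), a 47.7-fold reduction. It was also lower in the other 2 mutants, with 2.94, 2.17 and 1.28 CPM at 24 h against 89.3, 105 and 132 CPM at 0 h in gpb1-2. In xlg1-2 it had 2.42, 0.476 and 1.54 CPM at 24 h against 67.5, 97.4 and 93.7 CPM at 0 h. The second in gpa1-2 was Mapoly0134s0001, with 0.101, 0.0911 and 0.948 CPM at 24 h against 16.6, 18.2 and 16.6 CPM at 0 h (log2 change -5.45, SE 0.48, adjusted p = 3.46e-10).

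The same limits, at least 10 CPM in the higher group and no overlap between libraries, apply to the falls ranked here in gpb1-2 and xlg1-2. Without them, fitted changes reached -9.64 in xlg1-2, at a member under 20 CPM at 0 h. Within the limits, the largest falls in gpb1-2 were those of Mapoly0012s0068 and Mapoly0025s0077. Mapoly0012s0068 had 0.178, 0 and 0.0987 CPM at 24 h against 21.3, 10.5 and 32.8 CPM at 0 h (log2 change -7.67, SE 0.79, edgeR adjusted p = 6.25e-09). Mapoly0025s0077 had 0.624, 0 and 0.0987 CPM at 24 h against 36.5, 33.0 and 42.9 CPM at 0 h (log2 change -7.34, SE 0.43, adjusted p = 2.26e-13). Both were close to undetected at 24 h in gpb1-2, where a few counts decide the fitted size of the fall. Mapoly0025s0077 also led in xlg1-2, with 0.358, 0.762 and 0.280 CPM at 24 h against 38.3, 27.3 and 37.8 CPM at 0 h (log2 change -6.30, SE 0.39, adjusted p = 4.63e-13). Mapoly0085s0007 followed, with 0.537, 0.381 and 0.607 CPM at 24 h against 35.9, 26.3 and 46.7 CPM at 0 h in xlg1-2 (log2 change -6.08, SE 0.54, adjusted p = 2.47e-10). At 24 h each of these loci stood under 1 CPM in every library of the mutant named.

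The 2 members most abundant in Tak-1 at 0 h were called lower at 24 h in all 3 mutants. Mapoly0133s0032 averaged 309 ± 8.30 CPM at 24 h against 3940 ± 428 CPM at 0 h in gpa1-2, 317 ± 110 against 3685 ± 458 CPM in gpb1-2, and 452 ± 151 against 4318 ± 521 CPM in xlg1-2 (SD, n = 3). Its log2 changes were -3.67, -3.54 and -3.26 in that order of genotypes. Mapoly0079s0038 averaged 1452 ± 172 CPM at 24 h against 4092 ± 356 CPM at 0 h in gpa1-2, 1343 ± 73.1 against 3925 ± 173 CPM in gpb1-2, and 1418 ± 283 against 4127 ± 672 CPM in xlg1-2. Its log2 changes were -1.50, -1.55 and -1.54. At 24 h Mapoly0079s0038 was the most abundant member in all 4 genotypes, with 15.2% of the list's counts in gpa1-2, 15.1% in gpb1-2, 15.1% in xlg1-2 and 13.7% in Tak-1.

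There were 7 members not called lower in every mutant at 24 h against 0 h, and they are all named because the group is small. Mapoly0027s0073 was not called in gpa1-2 (log2 change -0.71, SE 0.66, edgeR adjusted p = 0.399) or xlg1-2 (-0.47, SE 0.61, adjusted p = 0.554). It had 8.24, 51.6 and 28.7 CPM at 24 h against 67.9, 14.7 and 39.4 CPM at 0 h in xlg1-2, so these libraries overlapped. Mapoly0130s0027 was not called in gpa1-2 (-0.81, SE 0.45, adjusted p = 0.141) or xlg1-2 (-0.70, SE 0.44, adjusted p = 0.188). Mapoly0067s0074 was not called in gpb1-2 (-0.15, SE 0.26, adjusted p = 0.663) or xlg1-2 (-0.43, SE 0.27, adjusted p = 0.193). In that locus the 0 h level was low in both mutants, with 2.94, 4.54 and 5.48 CPM at 24 h against 4.43, 4.74 and 5.33 CPM at 0 h in gpb1-2. The others missed in 1 mutant each were Mapoly0035s0049 in gpa1-2 (-0.33, SE 0.33, adjusted p = 0.438), Mapoly0050s0042 in gpb1-2 (-0.41, SE 0.26, adjusted p = 0.207) and Mapoly0169s0005 in xlg1-2 (-0.69, SE 0.32, adjusted p = 0.0731). The last was Mapoly0015s0096 in gpa1-2.

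Mapoly0015s0096 was picked out for its values. It held between 0 and 2 counts in each of the 9 gpa1-2 libraries, whatever the time, so no fold is given for that mutant. In gpb1-2 it averaged 207 ± 85.3, 69.6 ± 21.5 and 13.4 ± 2.84 CPM after TMM scaling at 0, 2 and 24 h (SD, n = 3). In xlg1-2 it averaged 126 ± 64.7, 30.9 ± 21.3 and 14.96 ± 7.83 CPM. In Tak-1 it averaged 94.0 ± 64.7, 25.1 ± 6.67 and 8.06 ± 2.46 CPM. The locus was thus near 0 in gpa1-2 before any salt, and declined with time in the other genotypes. The files do not say what it encodes, and its fitted change in gpa1-2 rests on too few counts to read.

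Mapoly0223s0005, also picked out for its values, was nearly undetected at 24 h in every genotype. Its 0 h level was low as well, between 5.34 and 7.82 CPM with the libraries of each group pooled. It had 2 counts over the 3 gpa1-2 libraries at 24 h against 177 at 0 h, and 1 count over the 3 gpb1-2 libraries at 24 h against 217 at 0 h. In xlg1-2 no count was found at 24 h against 316 at 0 h, which is at least 107-fold lower with a floor of 3 counts over the group. In Tak-1 there were 2 counts at 24 h against 170 at 0 h. At 2 h the same locus still held 140 counts in gpa1-2, 145 in gpb1-2, 195 in xlg1-2 and 156 in Tak-1.

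The larger part of the median fall came after 2 h. At 24 h against 2 h edgeR called 144 of 150 members lower in gpa1-2, 142 in gpb1-2 and 142 in xlg1-2, against 21.0%, 19.6% and 21.1% of all loci. None was called higher, against 21.0%, 18.4% and 20.7% of all loci. The median log2 change was -1.69 in gpa1-2, -1.57 in gpb1-2 and -1.74 in xlg1-2, against medians of -0.0037, 0.0006 and -0.008 over all loci tested. Of the members, 135 were called lower in all 3 mutants, against 14.1% of all loci. Both falls, against 0 h and against 2 h, were called in all 3 mutants for 133 members, against 9.10% of all loci. The 2 contrasts of a genotype share its 24 h libraries.

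The falls after 2 h are ranked here among members with at least 10 CPM in the higher group and no overlap between libraries. Members outside those limits had fitted changes down to -6.15 in gpa1-2, -6.59 in gpb1-2 and -8.76 in xlg1-2. Within the limits, the largest falls after 2 h in gpa1-2 were those of Mapoly0021s0124 and Mapoly0081s0035. Mapoly0021s0124 had 1.31, 0.546 and 0.948 CPM at 24 h against 30.2, 30.0 and 11.2 CPM at 2 h (log2 change -4.66, SE 0.50, edgeR adjusted p = 1.86e-08). Mapoly0081s0035 had 49.7, 44.8 and 51.1 CPM at 2 h in gpa1-2, which put its change at 24 h against 2 h at -4.57 (SE 0.27, adjusted p = 4.96e-13). In gpb1-2 the largest were those of Mapoly0025s0077 (-6.40, SE 0.44, adjusted p = 6.56e-12) and Mapoly0030s0002 (-5.58, SE 0.41, adjusted p = 2.45e-11). In xlg1-2 they were those of Mapoly0008s0164 (-5.43, SE 0.37, adjusted p = 3.70e-12) and Mapoly0025s0077 (-5.12, SE 0.40, adjusted p = 5.32e-11). Mapoly0008s0164 had 0.358, 0.286 and 0.233 CPM at 24 h against 7.99, 14.5 and 15.1 CPM at 2 h in xlg1-2. Each of these loci was separated without overlap between 24 h and 2 h libraries.

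By 2 h most members leaned lower, though 80 were called lower in no mutant. At 2 h against 0 h edgeR called 32 members lower in gpa1-2, 60 in gpb1-2 and 54 in xlg1-2, against 10.3%, 14.1% and 14.5% of all loci. It called 4, 6 and 7 members higher in the same order, against 12.1%, 15.2% and 16.2% of all loci. The members' median log2 changes were -0.30 in gpa1-2, -0.56 in gpb1-2 and -0.52 in xlg1-2, against 0.003, 0.0124 and 0.0024 over all loci tested. Of the 150 fitted changes, 115, 127 and 121 were negative in the same order. Of the members, 31 were called lower at 2 h in all 3 mutants, against 7.67% of all loci, and 80 in none of them. There were 2 members called higher in all 3, against 9.24% of all loci. The 6 called higher in gpb1-2 became 2 without its replicate 1 at 0 h, and 3 without its replicate 3 at 0 h or replicate 2 at 2 h. The counts called lower also moved. With libraries left out they were 22 to 33 in gpa1-2, 42 to 65 in gpb1-2 and 38 to 54 in xlg1-2. Under the other settings they were 32 to 45, 58 to 83 and 53 to 71 in the same order. Whether the counts of the 3 mutants differ at 2 h was not tested.

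The members were split by their early course in Tak-1 alone, at a log2 change of 1 in either direction at 2 h against 0 h. In Tak-1, 20 members were down at 2 h, 3 were up and 127 lay between. Of the 20 members down at 2 h in Tak-1, edgeR called 17 lower at 2 h in gpa1-2, 19 in gpb1-2 and 19 in xlg1-2. Of the 127 between, it called 15 lower in gpa1-2, 41 in gpb1-2 and 35 in xlg1-2. Of all loci, 10.3%, 14.1% and 14.5% were called lower in the same order, and the count of 15 in gpa1-2 is near that share. No test was made between the classes.

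**Figure D4:**
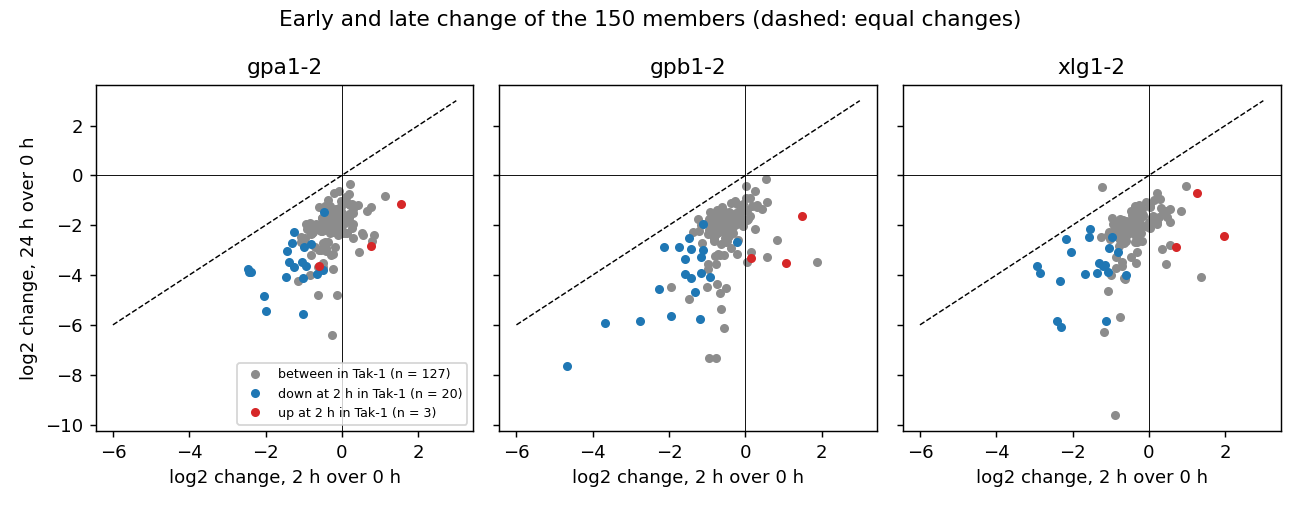
Log2 change at 2 h over 0 h (x axis) and at 24 h over 0 h (y axis) of the 150 members in gpa1-2, gpb1-2 and xlg1-2, coloured by the 2 h class in Tak-1. Points lie below the dashed line of equal changes, with 1 exception in xlg1-2, and the 20 members down at 2 h in Tak-1 extend to the lower left.

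A neighbouring pair led the early fall in gpb1-2 and xlg1-2, and Mapoly0012s0063 of that pair led it in gpa1-2. Mapoly0012s0063 had 23.8, 21.8 and 8.80 CPM after TMM scaling at 2 h against 84.7, 108 and 101 CPM at 0 h in gpa1-2 (log2 change -2.45, SE 0.40, edgeR adjusted p = 2.85e-05). In gpb1-2 it had 1.36, 1.29 and 1.57 CPM at 2 h against 18.7, 7.82 and 28.1 CPM at 0 h (-3.69, SE 0.50, adjusted p = 1.29e-06). In xlg1-2 it had 3.89, 14.7 and 11.3 CPM at 2 h against 78.8, 61.9 and 76.0 CPM at 0 h (-2.85, SE 0.41, adjusted p = 3.27e-06). The 2 h and 0 h libraries did not overlap in any of the 3 mutants. Mapoly0012s0068, with a serial number 5 higher on the same scaffold, had 0.728, 0.826 and 0.922 CPM at 2 h against 21.3, 10.5 and 32.8 CPM at 0 h in gpb1-2 (-4.68, SE 0.56, adjusted p = 1.74e-07). In xlg1-2 it had 3.99, 17.96 and 13.7 CPM at 2 h against 84.4, 80.0 and 107 CPM at 0 h (-2.92, SE 0.42, adjusted p = 3.06e-06). In gpa1-2 the second largest early fall was that of Mapoly0212s0013, with 4.26, 5.50 and 3.32 CPM at 2 h against 36.6, 18.8 and 14.9 CPM at 0 h (-2.42, SE 0.34, adjusted p = 3.57e-06).

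A few members were called higher at 2 h. Mapoly0169s0005 had 39.9, 40.7 and 46.7 CPM at 2 h against 18.1, 13.8 and 11.3 CPM at 0 h in gpa1-2 (log2 change 1.56, SE 0.31, edgeR adjusted p = 0.00037). It had 50.3, 37.4 and 31.9 CPM at 2 h against 17.2, 8.34 and 16.6 CPM at 0 h in gpb1-2 (1.49, SE 0.31, adjusted p = 0.000367), and 24.0, 32.7 and 37.3 CPM at 2 h against 13.5, 11.1 and 14.5 CPM at 0 h in xlg1-2 (1.26, SE 0.31, adjusted p = 0.00225). At 24 h it was at 5.64, 7.20 and 6.73 CPM in gpa1-2, and at 3.84, 4.75 and 4.98 CPM in gpb1-2. In xlg1-2 it was at 4.12, 11.7 and 8.54 CPM at 24 h, and was not called lower than at 0 h (log2 change -0.69, adjusted p = 0.0731). Mapoly0008s0164 had 13.6, 25.1 and 23.2 CPM at 2 h against 6.30, 5.35 and 5.18 CPM at 0 h in gpb1-2 (1.88, SE 0.26, adjusted p = 1.46e-06). In xlg1-2 it had 7.99, 14.5 and 15.1 CPM at 2 h against 4.70, 4.60 and 5.19 CPM at 0 h (1.37, SE 0.26, adjusted p = 0.000162). In gpa1-2 the second was Mapoly0011s0066, with 15.1, 15.3 and 16.9 CPM at 2 h against 9.44, 9.67 and 7.07 CPM at 0 h (0.86, SE 0.27, adjusted p = 0.0194).

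The mutants were then compared with one another in how far members fell by 24 h. These differences of changes use no Tak-1 library, but the 3 comparisons share mutant libraries pairwise. For gpb1-2 minus gpa1-2, edgeR called 7 members with a deeper fall in gpb1-2, against 1.48% of all loci, and none with a shallower one, against 0.0971% of all loci. Before adjustment 29 members had p under 0.05 in this comparison. The share of all loci at that unadjusted threshold was not counted, here or in the comparisons below. Nothing is therefore read from the unadjusted counts. With DESeq2 3 members were called shallower, with replicate number as a block within each genotype 3, and without replicate 1 of gpa1-2 at 0 h 2. There was 1 without replicate 3 of gpa1-2 at 24 h, replicate 1 of gpb1-2 at 0 h or replicate 2 of gpb1-2 at 24 h. For xlg1-2 minus gpa1-2, 1 member was called deeper in xlg1-2, against 0.0583% of all loci, and 19 had an unadjusted p under 0.05. With the block within each genotype the count was 2. For xlg1-2 minus gpb1-2 no member was called in either direction, against 0% of all loci lower and 0.194% higher, and 19 had an unadjusted p under 0.05. DESeq2 called 3 members there with a shallower fall in xlg1-2, and so did the fit with the block within each genotype. A replicate block shared by all genotypes called 2. Without replicate 1 of xlg1-2 at 24 h there were 2. The median difference over the members was -0.06, -0.06 and -0.05 in the 3 comparisons, and 129, 138 and 133 of the 150 members differed by 1 or less on the log2 scale. The median SE of such a difference was 0.37 to 0.38.

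Mapoly0030s0002 had the smallest p in the comparison of gpb1-2 with gpa1-2. It had 0.446, 0.310 and 0.296 CPM at 24 h against 23.6, 25.1 and 25.2 CPM at 0 h in gpb1-2, and 1.21, 0.638 and 0.758 CPM at 24 h against 7.27, 3.85 and 3.68 CPM at 0 h in gpa1-2. In xlg1-2 it had 0.448, 0.190 and 0.327 CPM at 24 h against 23.0, 11.6 and 17.1 CPM at 0 h. The difference of its log2 changes was -3.63 for gpb1-2 minus gpa1-2 (SE 0.61, edgeR adjusted p = 0.00106) and -3.19 for xlg1-2 minus gpa1-2 (SE 0.61, adjusted p = 0.031). In gpa1-2 the locus started lower and ended higher than in the other 2 mutants. At 24 h it held only 12, 7 and 8 counts in gpa1-2, 5, 3 and 6 in gpb1-2, and 5, 2 and 7 in xlg1-2. A few counts thus weigh on the fitted size of the difference at this locus. For xlg1-2 minus gpa1-2 Mapoly0030s0002 was called in 9 of 20 ways of processing. There the count was 0 in a fit of only the groups compared, and without replicate 1 of xlg1-2 at all times. It was also 0 without replicate 2 or 3 of gpa1-2 at 0 h, replicate 1 of xlg1-2 at 0 h, or any 1 replicate of gpa1-2 or xlg1-2 at 24 h.

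The other members called deeper in gpb1-2 than in gpa1-2 include 3 loci with consecutive serial numbers, Mapoly0027s0166, Mapoly0027s0167 and Mapoly0027s0168. They are named for their values, as are the others below, since the group is small. Mapoly0027s0166 had 2.41, 2.27 and 1.43 CPM at 24 h against 59.5, 59.9 and 60.9 CPM at 0 h in gpb1-2, and 79.5, 95.3 and 97.8 CPM at 24 h against 200, 313 and 266 CPM at 0 h in gpa1-2. Its difference of log2 changes was -3.43 (SE 0.64, edgeR adjusted p = 0.00313). Mapoly0027s0167 had 3.39, 1.86 and 0.888 CPM at 24 h against 79.1, 97.6 and 58.3 CPM at 0 h in gpb1-2, and 74.9, 59.7 and 96.7 CPM at 24 h against 255, 302 and 369 CPM at 0 h in gpa1-2 (difference -3.37, SE 0.78, adjusted p = 0.0181). Mapoly0027s0168 had 3.75, 2.37 and 1.38 CPM at 24 h against 61.0, 71.3 and 54.7 CPM at 0 h in gpb1-2, and 194, 163 and 209 CPM at 24 h against 363, 461 and 496 CPM at 0 h in gpa1-2 (difference -3.50, SE 0.73, adjusted p = 0.00799). In gpb1-2 all 3 loci thus started lower than in gpa1-2 and were almost lost, whereas in gpa1-2 they kept between 59.7 and 209 CPM.

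The same 3 loci in xlg1-2 lay between and depended on the library. Mapoly0027s0166 had 19.0, 53.8 and 30.2 CPM at 24 h against 129, 255 and 157 CPM at 0 h in xlg1-2, with replicate 1 the lowest at both times. At 2 h its replicate 1 had 36.8 CPM, against 215 and 181 CPM in replicates 2 and 3. Mapoly0027s0167 had 52.6, 335 and 239 CPM at 2 h in xlg1-2, and Mapoly0027s0168 had 61.1, 404 and 342 CPM. That replicate therefore stood apart at all 3 loci. Without replicate 1 of xlg1-2 at all times, 3 members were called with a shallower fall in xlg1-2 than in gpb1-2, and they were Mapoly0027s0166, Mapoly0027s0168 and Mapoly0002s0336. Mapoly0027s0167 was not among them.

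**Figure D5:**
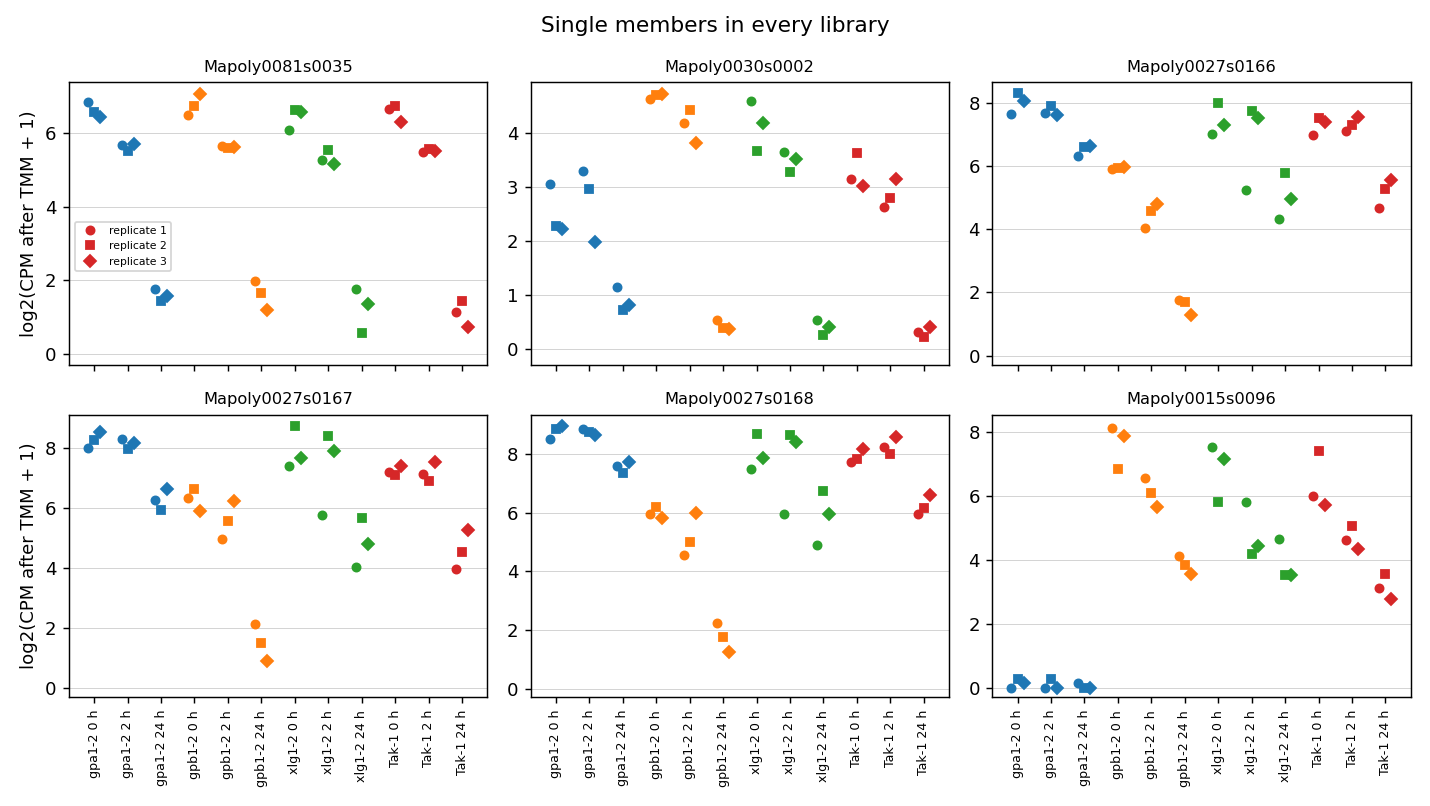
Level of 6 members in every library, as log2 of CPM after TMM scaling plus 1, at 0, 2 and 24 h of NaCl in gpa1-2, gpb1-2, xlg1-2 and Tak-1 (circles, squares and diamonds are replicates 1, 2 and 3). Mapoly0081s0035 is lowest at 24 h in all genotypes, Mapoly0027s0166 to Mapoly0027s0168 reach their lowest levels in gpb1-2 at 24 h, and Mapoly0015s0096 is at or near 0 in all 9 gpa1-2 libraries.

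The remaining members with a deeper fall in gpb1-2 than in gpa1-2 were Mapoly0887s0001, Mapoly0206s0001 and Mapoly0025s0077. Mapoly0887s0001 had 1.96, 2.68 and 0.839 CPM at 24 h against 48.0, 38.0 and 25.6 CPM at 0 h in gpb1-2, and 30.0, 66.1 and 57.7 CPM at 24 h against 66.8, 175 and 120 CPM at 0 h in gpa1-2 (difference -3.24, SE 0.72, edgeR adjusted p = 0.0131). Mapoly0206s0001, which is far more abundant, had 279, 204 and 180 CPM at 24 h against 925, 878 and 903 CPM at 0 h in gpb1-2, and 561, 471 and 473 CPM at 24 h against 1060, 822 and 887 CPM at 0 h in gpa1-2. It began alike in both mutants and differed at 24 h (difference -1.15, SE 0.26, adjusted p = 0.0131). The call for Mapoly0025s0077 was marginal (difference -2.54, SE 0.68, adjusted p = 0.0494) and rests on 24 h levels of about 1 CPM or less in both mutants. The count of 7 fell to 4 without replicate 2 of gpa1-2 at 0 h, and to 2 without replicate 3 of gpb1-2 at 24 h.

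Other members with the smallest p-values in these comparisons were not called. Mapoly0019s0050 had a difference of 0.90 for gpb1-2 minus gpa1-2 (SE 0.25, edgeR adjusted p = 0.0705), and Mapoly0193s0021 had 1.34 (SE 0.38, adjusted p = 0.0819). For xlg1-2 minus gpa1-2 they were Mapoly0063s0074 at 0.85 (SE 0.23, adjusted p = 0.428), Mapoly0193s0020 at 1.06 (SE 0.38, adjusted p = 0.857) and Mapoly0047s0065 at -0.90 (SE 0.25, adjusted p = 0.428). For xlg1-2 minus gpb1-2 they were Mapoly0027s0166 at 2.55 (SE 0.65, adjusted p = 0.126), Mapoly0027s0168 at 2.65 (SE 0.73, adjusted p = 0.2), Mapoly0010s0082 at -1.36 (SE 0.49, adjusted p = 0.606) and Mapoly0003s0002 at -1.36 (SE 0.50, adjusted p = 0.606). These values do not show that the mutants act alike at those loci.

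The scaffold and serial number in each identifier give a rough position. The members lay on 91 scaffolds, with at most 7 on 1 scaffold. Of the 150, 39 fell into 16 runs, in which members follow each other on a scaffold with serial numbers at most 5 apart. Among pairs of a member and a ranked locus within 5 serial numbers of it, the second locus was itself a member in 58 of 614 pairs or 9.45%, whereas 1.80% of all ranked loci are members. This is a description, since the pairs overlap. The longest run, Mapoly0114s0050 to Mapoly0114s0056, held 5 members among 6 ranked loci, and all 5 were called lower at 24 h against 0 h in all 3 mutants. Their log2 changes lay between -2.20 and -1.64 in gpa1-2, between -2.06 and -1.35 in gpb1-2, and between -2.26 and -1.64 in xlg1-2. The run Mapoly0012s0060 to Mapoly0012s0071, which holds the early falling pair, had 4 members among 6 ranked loci. The run Mapoly0027s0166 to Mapoly0027s0168 had 3 among 3, and Mapoly0012s0084 to Mapoly0012s0092 had 3 among 5. Whether neighbours are near-identical copies that share reads was not tested, so levels of single loci within a run are uncertain.

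The sizes of the members' falls correlated between mutants. Across the 150 members the log2 changes at 24 h against 0 h, on CPM plus 1, correlated at r = 0.66 between gpa1-2 and gpb1-2, 0.81 between gpa1-2 and xlg1-2, and 0.85 between gpb1-2 and xlg1-2. These values are descriptions across loci, which are not independent replicates, of genotypes that share no library. The same correlation over all loci tested was not computed, so nothing is read about the members in particular. Adding 1 CPM also limits the fall that a locus with a low starting level can show, in every mutant. Replicate spread, as the median over members, was widest at 24 h in each genotype. The median coefficient of variation of the members was 14.8%, 15.6% and 19.0% at 0, 2 and 24 h in gpa1-2, 16.5%, 14.4% and 19.3% in gpb1-2, and 13.9%, 16.9% and 27.9% in xlg1-2. In Tak-1 it was 18.1%, 22.7% and 24.96%.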

How the data were processed

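RNA was extracted from frozen gemmalings with a Qiagen plant kit and sequenced as standard Illumina libraries, per the labels' protocols. Values were whole-number counts per locus as deposited by the authors. The submitters' processing notes name STAR, and no Marchantia genome build or counting tool is given by the sources used here. Lines of 1 identifier were summed, since 3012 of 16743 identifiers occupied 2 lines, among them 2 members.

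Counts were tested with edgeR 4.0.16 and limma 3.58.1 in R 4.3.3: filterByExpr (minimum count 10, minimum total 15), TMM scaling, and quasi-likelihood F-tests in 1 model with a mean for each of 12 groups. P-values were adjusted by Benjamini-Hochberg over 10296 loci, and an adjusted p under 0.05 was called. CPM in the member rule and in the shares of counts used all counts of a library. Alternatives were DESeq2 1.42.0, DESeq2 size factors in edgeR, a replicate block, a fit without the low-count filter, a fit of only the groups compared, and each library left out in turn.

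Same-numbered libraries of 1 genotype deviated together at 24 h and 0 h (correlations of deviations 0.125 to 0.389 over the 3 mutants, each pair above 0.1). The range was 0.051 to 0.578 at 2 h and 0 h, and 0.044 to 0.54 at 24 h and 2 h. For replicate 3 of gpb1-2 at 2 h the correlation with another number at 0 h was higher, at 0.221. The reported tests did not use this pairing. A block within each genotype was therefore added after seeing the data.

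Named loci were, per comparison, the 2 largest called changes in each direction with separate libraries and at least 10 CPM in the higher group. For differences between mutants they were the 2 smallest p-values, and in Tak-1 the 2 highest scores, the 2 highest levels and the loci beside the threshold. Members, lists and tests were chosen with earlier results of these data known. The Marchantia WRKY table shares 0 identifiers with this one and was not used here.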

Additional observations from a re-analysis of the deposited data

Results flagged for a closer look

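The fall of 7 members at 24 h against 0 h differed between gpb1-2 and gpa1-2 in edgeR's test of the difference itself, and that of 1 member between xlg1-2 and gpa1-2. For gpb1-2 minus gpa1-2 the differences of log2 changes were -3.63 for Mapoly0030s0002, -3.50 for Mapoly0027s0168, -3.43 for Mapoly0027s0166, -3.37 for Mapoly0027s0167, -3.24 for Mapoly0887s0001, -2.54 for Mapoly0025s0077 and -1.15 for Mapoly0206s0001. For xlg1-2 minus gpa1-2 the difference was -3.19 for Mapoly0030s0002. Over 19 ways of processing, which are the reported fit, 6 alternatives including DESeq2 and 12 fits with 1 library left out, Mapoly0030s0002 and Mapoly0027s0166 were called for gpb1-2 minus gpa1-2 in all 19. Mapoly0027s0168 and Mapoly0887s0001 were called in 18, Mapoly0027s0167 in 17, Mapoly0206s0001 in 16 and Mapoly0025s0077 in 6. For xlg1-2 minus gpa1-2, with the removal of replicate 1 of xlg1-2 at all times as 1 more, Mapoly0030s0002 was called in 9 of 20.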

How the results depend on the processing

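Of 348 recomputed values, 319 stayed within 1.5 times the reported count. At 24 h against 0 h or 2 h the members called lower numbered 129 to 148 under every alternative run, and none was called higher in any mutant. The rule kept 114 of its 150 members with a pseudocount of 5 CPM, 137 to 148 with the other settings tried, and 134 to 146 with 1 Tak-1 library left out. At 2 h against 0 h in gpb1-2, 2 to 5 members were called higher with 1 library left out. For gpb1-2 minus gpa1-2, the members called shallower in gpb1-2 numbered 1 with a replicate block, 3 with the block within genotype, 3 with DESeq2 and 0 to 2 with 1 library left out, and those called deeper numbered 2 to 7 with 1 library left out. For xlg1-2 minus gpb1-2, the members called shallower in xlg1-2 numbered 2 with a replicate block, 3 with the block within genotype, 3 with DESeq2, 0 to 2 with 1 library left out and 3 without replicate 1 of xlg1-2 at all times. For xlg1-2 minus gpa1-2, the members called deeper in xlg1-2 numbered 2 with the block within genotype, 0 with only the groups compared, 0 to 1 with 1 library left out and 0 without replicate 1 of xlg1-2 at all times. The cause was not tested. The replicate block moved no other count by more than 1.5 times. The block within genotype and the removal of replicate 1 of xlg1-2 were chosen after seeing the data. Tests planned on the Marchantia WRKY table were not run, as it shares 0 identifiers with the table used.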
